A study of Mus musculus with 4 samples.

Results

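The genes described here are those named for subunits of oxidative phosphorylation. They are the 95 of 53700 genes in the deposited expression table whose symbol names a subunit of complex I (Nduf and mt-Nd genes), complex II (Sdh), complex III (Uqcr and mt-Cytb), complex IV (Cox and mt-Co) or complex V, the ATP synthase (Atp5 and mt-Atp). Of these, 82 lie in the nuclear genome and 13 in the mitochondrial genome, and they were chosen by symbol alone, not by their values. RNA-seq was done on primary spermatocytes that were sorted by Hoechst staining from the testes of 8-week-old C57BL/6 mice. The circSry KO mice carry a deletion of the splice acceptor upstream of Sry that removes the circular RNA circSRY and is not confined to germ cells, and the other group was wild type. Each group had 2 mice with 1 library each, named circSry KO replicates 1 and 2 and wild type replicates 2 and 3. The question for these genes was whether the messengers of both genomes and of the 5 complexes differed together between circSry KO and wild-type spermatocytes.

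Oxidative phosphorylation is the route by which mitochondria make ATP. Complexes I and II pass electrons from NADH and succinate to ubiquinone, complex III passes them on to cytochrome c and complex IV to oxygen, and the ATP synthase uses the proton gradient that complexes I, III and IV build. Each of these complexes but complex II needs subunits of both genomes: mitochondrial DNA encodes hydrophobic core subunits, which are transcribed from both strands of the circular genome as long precursors and cut into messengers at the tRNAs between them. In the testis, spermatocytes at pachytene and the cells after them use lactate through oxidative phosphorylation, and male germ cells hold their own isoforms of several mitochondrial proteins, such as Cox7b2.

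The expected counts summed to 8839461 and 8191397 in circSry KO replicates 1 and 2, against 8045148 and 8422943 in wild type replicates 2 and 3. The upper limit that a count of 0 allows, set at 3 counts, was 0.339 to 0.373 CPM (CPM being counts scaled to the library total) across the libraries and covers counting error only. The messengers of the 13 mitochondrial genes took 0.886% and 1.24% of all counts in circSry KO, against 2.10% and 1.24% in wild type, and those of the 82 nuclear genes 0.814% and 0.474% in circSry KO, against 0.705% and 0.725% in wild type. The libraries were made from polyadenylated RNA with a kit that does not mark the strand. Markers of some other cells and stages moved with the genotype. Genes are termed called where edgeR's quasi-likelihood test, run over 17766 genes with enough counts, gave an FDR under 0.05 (Benjamini-Hochberg over all of them) and the log2 fold change, circSry KO over wild type, was at least 1 in size. Of 11 markers of elongating spermatids 10 were called higher in circSry KO, with a sum of 44350 to 53571 TPM in circSry KO, against 9587 to 9697 TPM in wild type, and of 17 of round spermatids 14 were called higher. All 13 markers of macrophages and other leukocytes were called higher, with 388 to 542 TPM in circSry KO, against 24.8 to 30.1 TPM in wild type, and the same held for all 13 markers of stromal and myoid cells and for 7 of 9 tested Sertoli cell markers. Of 12 markers of leptotene and zygotene spermatocytes 10 were called lower, with 405 to 440.4 TPM in circSry KO, against 1101 to 1544 TPM in wild type, and of 8 of Leydig cells 8 were called lower. Of 12 markers of pachytene and diplotene spermatocytes 3 were called higher and 3 lower, of 12 of spermatogonia 4 were called higher and 1 lower, of 4 tested of erythroid cells 1 was called higher, and the 8 of endothelial cells had adjusted p from 0.525 to 0.998 (edgeR). No marker of these lists was at 0 in all 4 libraries, and the part of these cells in the results below was not tested. In bulk RNA, fewer cells of a type and less RNA per cell cannot be told apart.

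Reads of some mitochondrial genes cannot be given to 1 gene with certainty, and the sequences show where. The annotations of 3 pairs of protein genes share more than 1 base on chromosome M of GRCm39. They are printed here on the plus strand with the shared bases in capitals, because a read that lies in these bases fits both genes of the pair.
mt-Nd4l and mt-Nd4 (chrM:10157-10183): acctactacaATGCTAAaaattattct
mt-Atp8 and mt-Atp6 (chrM:7917-7946): gagaattaaaATGAACGAAAATCTATTTGC
mt-Nd5 and mt-Nd6 (chrM:13544-13573): atactcaaTTAATCTCGAGTAAtctcgata
The first overlap is 7 bases and opens with the ATG of mt-Nd4, the second is 43 bases, of which the first 20 are shown, and opens with the ATG of mt-Atp6. The third is 14 bases and joins genes on opposite strands. mt-Nd4l with mt-Nd4, and mt-Atp8 with mt-Atp6, overlap on the same strand, and each pair can share 1 RNA. Mitochondrial genes are counted gene by gene here, so that messengers in these counts means genes and not separate RNAs. Another source of shared reads is a nuclear copy of the mitochondrial genome on chromosome 1, from 24650616 to 24655278 on the minus strand, where GENCODE annotates 7 genes. They match mt-Co1, mt-Co2, mt-Atp6, mt-Co3, mt-Nd3, mt-Nd4l and mt-Nd4 with an identity of 99.7% to 100% over 294 to 876 aligned bases.

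The 2 genomes are described first as a whole. Of the nuclear-encoded subunits 76 of 82 were tested. Of these 3 were called higher, where 20% of all genes tested were, and 7 were called lower, where 15% of all genes tested were. The other 66 did not pass. Of the 13 mitochondrial messengers, all tested, 0 were called higher and 2 were called lower. At an unadjusted p under 0.05 (edgeR) the count of higher mitochondrial messengers was still 0 and that of lower ones 6. Of all 17766 genes tested 4623 were higher and 3866 lower at that threshold. DESeq2 and limma on log2(TPM + 1) called 0 mitochondrial messengers higher and 3 or 7 lower. Over all genes DESeq2 called 2671 higher and 2542 lower, and limma 2219 higher and 2831 lower. Median log2 fold changes were -0.20 for nuclear members, -0.95 for the mitochondrial ones and 0.07 for all genes tested. These counts moved with the processing. By upper-quartile scaling the median of all genes moved to 0.28, 69.2% of all calls were higher in place of 57.1%, the nuclear median became 0.02 and the counts were 4 higher and 3 lower. On log2(TPM + 1) with limma, which changes the test, the length correction and the scaling together, the median of all genes was -0.13, 43.9% of all calls were higher, the nuclear median was -0.52 and the counts were 0 higher and 15 lower. Set against the median of all genes under the same setting, the nuclear median was -0.27 with TMM scaling, -0.26 with upper quartiles and -0.39 on log2(TPM + 1), and the mitochondrial median was -1.02, -1.02 and -1.05 in the same order of settings.

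**Figure D1:**
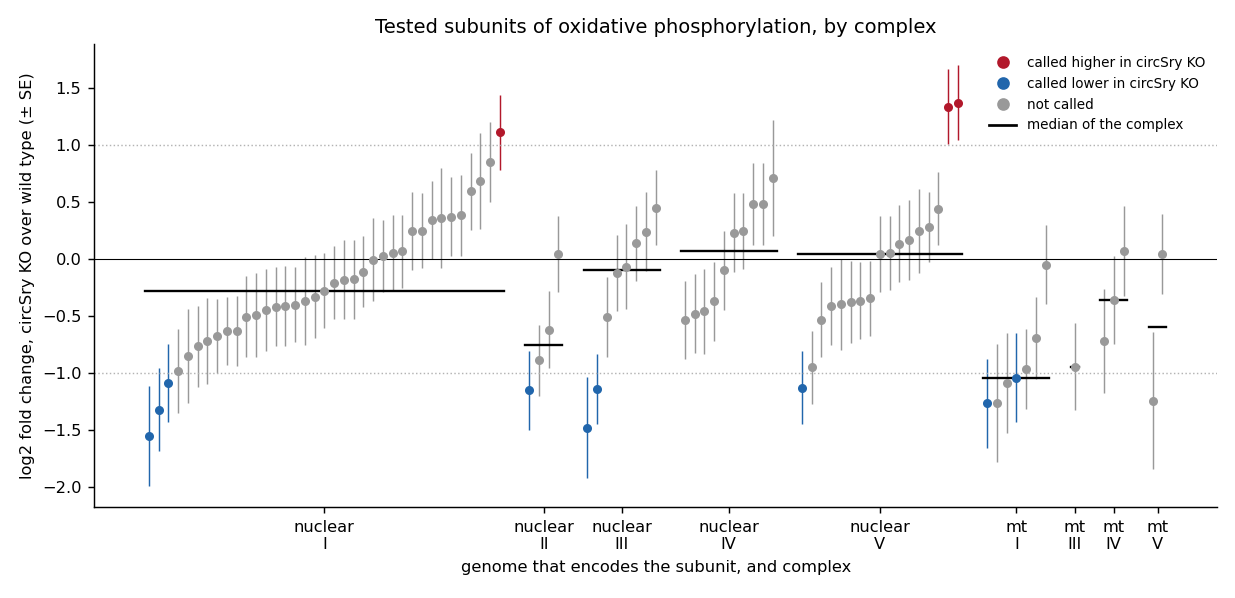
Log2 fold change of circSry KO over wild type (y axis, points, with the standard error as bars) for the 89 tested subunits, ordered within each complex and genome (x axis), with the median of each complex as a black line. Of the nuclear members 3 are called higher and 7 lower, and the 7 mitochondrial messengers of complex I have a median of -1.05, against -0.28 for the 37 nuclear ones.

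Many of these calls were lost when 1 library was left out, and without a wild-type library calls over all genes were fewer too. Such a fit has 1 library in 1 group, which is assumed to vary like the other group, so that a lost call can reflect the estimate of the spread as well as the library. With a wild-type library left out, the spread came from the circSry KO pair alone. Over the member genes, scaled to their own sum, that pair differed more than the wild-type pair (chi-square per member gene of 231 in circSry KO and 77.2 in wild type). This value covers the members only, whereas the fit estimates the spread over all genes, and its part in the lost calls was not tested. Without wild type replicate 2 the log2 fold changes were 1.09 to 1.44 for the 3 nuclear members called higher. They were -1.41 to -1.03 for the 7 nuclear members called lower and -0.90 and -0.73 for the 2 mitochondrial ones. All kept the sign they had with all libraries. Without wild type replicate 3 the same groups of members had 1.06 to 1.23, -1.76 to -1.13, and -1.64 and -1.38, again with the same signs. Without circSry KO replicate 1 the nuclear median was -0.71, against 0.06 for all genes tested. Without circSry KO replicate 2 it was 0.10, against 0.01 for all genes tested.

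Of the 7 mitochondrial genes that encode membrane subunits of complex I, 2 were called lower in circSry KO spermatocytes, where 15% of all genes tested were. mt-Nd5, which encodes one of the proton-pumping subunits, had 162 and 371 TPM in circSry KO replicates 1 and 2, against 955 and 536 TPM in wild type replicates 2 and 3. Both circSry KO libraries lay below both wild-type libraries, and the log2 fold change was -1.27 (standard error 0.39, adjusted p = 0.0200, edgeR). mt-Nd4, another pumping subunit, had 584 and 1156 TPM in circSry KO, against 2634 and 1580 TPM in wild type, at -1.05 on the log2 scale, circSry KO over wild type (SE 0.39, adjusted p = 0.0453). The order of the libraries was the same for both genes: circSry KO replicate 1 was lowest and wild type replicate 2 was highest. Neither gene was called without wild type replicate 2 (-0.90 and -0.73) or without circSry KO replicate 1 (-0.91 and -0.76), and mt-Nd4 was not called with upper-quartile scaling (-0.84).

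The other mitochondrial complex I messengers did not pass. mt-Nd2 had 465 and 535 TPM in circSry KO, against 1501 and 879 TPM in wild type, and at -0.97 on the log2 scale (adjusted p = 0.0390, edgeR) it missed the fold threshold only. mt-Nd1 had 1111 and 1420.4 TPM in circSry KO, against 3118 and 1866 TPM in wild type (-0.70, adjusted p = 0.139). The 2 circSry KO libraries differed less from each other for these genes than for mt-Nd5 and mt-Nd4. mt-Nd4l, the shortest of the complex I genes, had 470.5 and 2287 TPM in circSry KO, against 6501 and 3697 TPM in wild type (-1.26, adjusted p = 0.0659), from expected counts of 234 and 968 in circSry KO, against 1884 and 966 in wild type. mt-Nd3 had 540.2 and 199 TPM in circSry KO, against 1479 and 840 TPM in wild type (-1.09, adjusted p = 0.0623). The groups did not overlap in TPM for either gene, but the circSry KO libraries differed widely and in opposite directions, with circSry KO replicate 1 the lower one for mt-Nd4l and the higher one for mt-Nd3. mt-Nd6 is the only protein gene on the other strand of the mitochondrial genome. It had 585 and 414 TPM in circSry KO, against 833 and 517 TPM in wild type, and its groups overlapped (-0.05, standard error 0.35, adjusted p = 0.919). The ratio of mt-Nd5 to mt-Nd6 counts was 1.55 and 4.86 in circSry KO, against 6.63 and 6.23 in wild type. Counts of reads from the 2 strands cannot be told apart over their shared bases.

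Cytochrome b, the one mitochondrial subunit of complex III, showed the same order of groups. mt-Cytb had 1057 and 1579 TPM in circSry KO, against 3854 and 2226 TPM in wild type, without overlap (-0.95, standard error 0.38, adjusted p = 0.0597, edgeR). It carries no copy on chromosome 1 and shares no exonic base with another gene, and it was not called.

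Of the 5 mitochondrial messengers of complexes IV and V none was called by edgeR or DESeq2, none had an unadjusted p under 0.05, and limma on log2(TPM + 1) called mt-Atp8 lower. mt-Co1, which encodes the catalytic subunit of cytochrome c oxidase, had 2365 and 6053 TPM in circSry KO, against 10185 and 5911 TPM in wild type (-0.72, adjusted p = 0.224, edgeR). mt-Co2, which holds the copper center that takes electrons from cytochrome c, had 5026 and 4791 TPM in circSry KO, against 9982 and 5853 TPM in wild type (-0.37, adjusted p = 0.480). mt-Co3 had 2167 and 3752 TPM in circSry KO, against 4575 and 2267 TPM in wild type (0.07, adjusted p = 0.910). In TPM the groups overlapped for mt-Co1 and mt-Co3 and not for mt-Co2, and in CPM they overlapped for each of these genes. mt-Atp6, the channel subunit of the ATP synthase, had 637 and 632 TPM in circSry KO, against 1022 and 526 TPM in wild type (0.04, adjusted p = 0.942). mt-Atp8 had 133 and 294 TPM in circSry KO, against 1264 and 929 TPM in wild type, but these rest on only 6 and 13 expected counts, against 28 and 16 (-1.25, adjusted p = 0.113). Of the 13 genes, which are not 13 separate RNAs, 9 had both circSry KO libraries below both wild-type libraries in TPM. Of all genes tested 38.8% did. The count above was 0, where 29.5% of all genes tested were. After scaling by TMM the CPM gave 8 below, where 34.5% of all genes tested were, and 0 above, where 36.6% were. These 8 include mt-Atp8, with its few counts, and mt-Nd4l, which was nearly tied at 118.8 CPM in circSry KO replicate 2 and 118.9 CPM in wild type replicate 3.

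**Figure D2:**
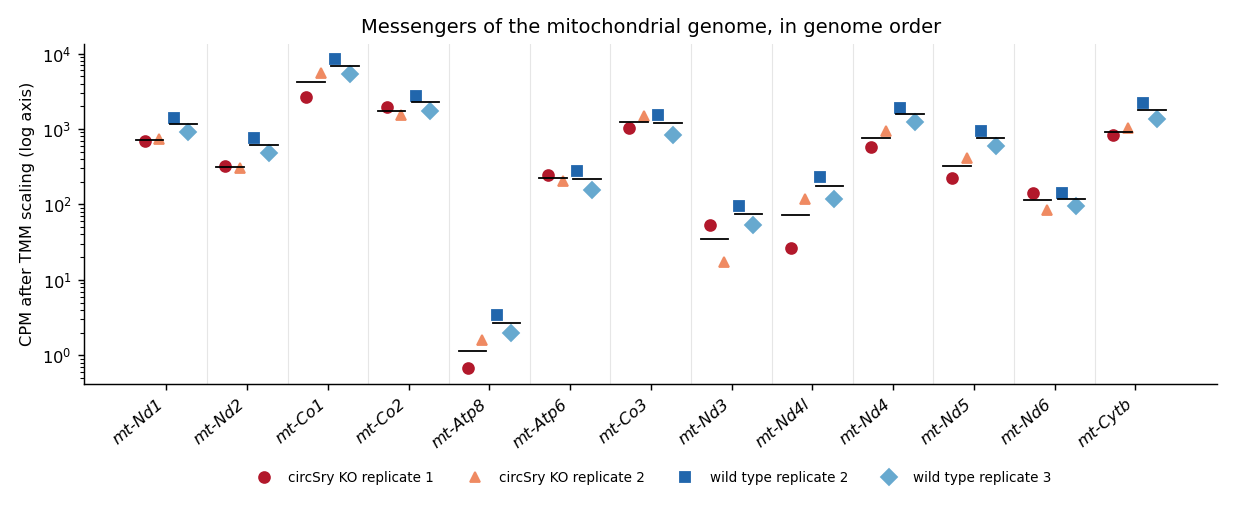
CPM after TMM scaling (y axis, log scale) of the 13 mitochondrial messengers in genome order (x axis), with circSry KO replicates 1 and 2 left of wild type replicates 2 and 3 and the group means as black lines. Wild type replicate 2 is above wild type replicate 3 for each gene, by 1.52 to 1.93 times, whereas the circSry KO libraries change places from gene to gene.

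How the reads were divided between the mitochondrial genes and their chromosome 1 copies differed between libraries. For mt-Atp6 the copy Gm10925 held 84.98% and 87.5% of the joint expected count in circSry KO, against 87.6% and 89.8% in wild type, so that most reads of this messenger stood under the nuclear gene. For mt-Nd3 the copy Gm28438 held 72.9% and 85.8% in circSry KO, against 63.7% and 70.1% in wild type. The copy of mt-Co1, Gm29216, held 30.8% and 9.05% in circSry KO, against 5.0% and 4.69% in wild type. For mt-Co3 the copy Gm28437 held 52.7% and 25.6% in circSry KO, against 43.3% and 54.7% in wild type, and for mt-Co2 the copy Gm28661 held 19.4% and 14.1% in circSry KO, against 13.4% and 19.9% in wild type. The copies of mt-Nd4 and mt-Nd4l were at 0 in all 4 libraries. With the reads of each copy added to its mitochondrial gene, the median of the 13 was -0.70 and the same 2 genes were called. The joint CPM of mt-Atp6 was then 1639 and 1615 in circSry KO, against 2265 and 1520 in wild type, and that of mt-Co1 3876 and 6146 in circSry KO, against 8791 and 5573 in wild type. The joint CPM of mt-Nd3 was 195 and 121 in circSry KO, against 265 and 179 in wild type, and the groups overlapped. Without the copy its CPM was 52.9 and 17.3 in circSry KO, against 96.4 and 53.4 in wild type, without overlap. The joint CPM of mt-Co2 was 2424 and 1793 in circSry KO, against 3186 and 2173 in wild type. Its groups overlapped, as they did in CPM without the copy (1953 and 1541 in circSry KO, against 2761 and 1739 in wild type). The TPM given above is another unit, so these overlaps in CPM do not carry over to it. Whether any of these reads came from chromosome 1 cannot be told from the counts, since the copies match the mitochondrial sequence over nearly all of their length.

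Complex I draws most of its subunits from the nucleus. Of its 37 nuclear genes 1 was called higher, where 20% of all genes tested were, and 3 were called lower, where 15% were. Ndufa1 (chromosome X, 36451241 to 36454849), a small membrane subunit needed for assembly, had 40.2 and 21.6 TPM in circSry KO, against 140.3 and 110 TPM in wild type, at -1.56 on the log2 scale (SE 0.44, adjusted p = 0.0127, edgeR). Ndufs6 (chromosome 13, 73464968 to 73476661), which belongs to the module that takes electrons from NADH, had 108 and 59.4 TPM in circSry KO, against 262 and 263 TPM in wild type (-1.32, standard error 0.37, adjusted p = 0.0115). Ndufc2 (chromosome 7, 97049210 to 97057022), a membrane subunit, had 47.5 and 40.3 TPM in circSry KO, against 108 and 108 TPM in wild type (-1.09, standard error 0.34, adjusted p = 0.0218). For each of these genes both circSry KO libraries lay below both wild-type libraries. Ndufa13 (chromosome 8, 70346808 to 70355872), a membrane subunit also known as GRIM-19, was the one called higher, with 136 and 98.1 TPM in circSry KO, against 69.3 and 63.9 TPM in wild type (1.11, standard error 0.33, adjusted p = 0.0161). Its exons share 1039 bases with Tssk6 on the other strand, a kinase gene of spermatids with 508 and 326 TPM in circSry KO, against 75.5 and 67.5 TPM in wild type (2.84, adjusted p = 1.27e-04), and reads of the 2 genes cannot be told apart there.

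Without wild type replicate 2 the log2 fold changes of these genes were -1.40 (Ndufa1), -1.37 (Ndufs6), -1.12 (Ndufc2) and 1.09 (Ndufa13), and none was called. Ndufa1 kept its call in 14 of 15 other settings and lost it only there. Ndufs6 and Ndufc2 were not called without circSry KO replicate 2 either (-0.87 and -0.80) nor without wild type replicate 3 (-1.34 and -1.13). Ndufc2 was also not called with upper-quartile scaling (-0.88). Ndufa13 was not called without circSry KO replicate 1 (0.66), without wild type replicate 3 (1.06) or on log2(TPM + 1) with limma (0.79).

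The remaining nuclear complex I genes ranged from -0.99 (Ndufb9, adjusted p = 0.0466, edgeR) to 0.85 (Ndufb1), and in all 24 of the 37 had a negative log2 fold change. DESeq2 called 1 nuclear complex I gene higher and 4 lower, and limma on log2(TPM + 1) 0 higher and 8 lower. Over all 17766 genes tested these counts were 2671 and 2542 by DESeq2 and 2219 and 2831 by limma. By TPM 24 of the 37 genes had both circSry KO libraries below both wild-type libraries, where 38.8% of all genes tested did, and 3 had them above, where 29.5% did. In CPM these counts were 13, where 34.5% of all genes tested did, and 4, where 36.6% did. The 2 with the highest mean TPM over all 4 libraries were Ndufa7, with 617 and 396 TPM in circSry KO, against 435 and 446 TPM in wild type (0.59, adjusted p = 0.181), and Ndufc1, with 509 and 386 TPM in circSry KO, against 524 and 422 TPM in wild type (0.05, adjusted p = 0.914). The level in circSry KO replicate 2 was the lowest of the 4 for both. Ndufa4, which is counted here by its name and is now known as a subunit of complex IV, had 64.1 and 28.2 TPM in circSry KO, against 38.0 and 39.8 TPM in wild type (0.36, adjusted p = 0.546), with overlapping groups.

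Complex II, succinate dehydrogenase, is the one complex with no mitochondrial gene. In TPM 3 of its 4 genes lay lower in both circSry KO libraries, where 38.8% of all genes tested did. In CPM the count was also 3, where 34.5% of all genes tested did. Sdhc (chromosome 1, 170954732 to 170978223), a membrane anchor, had 43.5 and 35.1 TPM in circSry KO, against 94.3 and 72.3 TPM in wild type, at -1.15 on the log2 scale (SE 0.34, adjusted p = 0.0168, edgeR). Sdha, the flavoprotein that oxidizes succinate, had 83.1 and 67.8 TPM in circSry KO, against 233 and 145 TPM in wild type (-0.89, adjusted p = 0.0331), and missed the fold threshold. The iron-sulfur subunit Sdhb had 144 and 97.4 TPM in circSry KO, against 150 and 140 TPM in wild type, with overlapping groups (0.04, adjusted p = 0.936). The other anchor, Sdhd, had 51.3 and 34.0 TPM in circSry KO, against 87.6 and 74.5 TPM in wild type (-0.62, adjusted p = 0.159). The 4 subunits act as 1 complex, and their fold changes differed, with a median of -0.76. Sdhc was not called without wild type replicate 2 (-1.06), without wild type replicate 3 (-1.30), without circSry KO replicate 2 (-0.77), with upper-quartile scaling (-0.94) or with an offset for the effective length (-0.86).

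Of 8 nuclear complex III genes 2 were called lower, where 15% of all genes tested were, and 6 did not pass. Uqcr11 (chromosome 10, 80236542 to 80242676), a small subunit at the edge of the complex, had 100.1 and 35.3 TPM in circSry KO, against 281 and 243 TPM in wild type (-1.48, standard error 0.44, adjusted p = 0.0168, edgeR). Uqcrc2 (chromosome 7, 120233976 to 120260035), a core subunit on the matrix side, had 53.5 and 49.7 TPM in circSry KO, against 147 and 126 TPM in wild type (-1.14, standard error 0.31, adjusted p = 0.00977). Both genes lay lower in each circSry KO library. Its partner in the core, Uqcrc1, had 319 and 274 TPM in circSry KO, against 392 and 415 TPM in wild type (-0.13, adjusted p = 0.785). The highest mean TPM over all 4 libraries were those of Uqcrq, with 1341 and 786 TPM in circSry KO, against 1203 and 1387 TPM in wild type (-0.07, adjusted p = 0.897), and Uqcr10, with 470.5 and 275 TPM in circSry KO, against 391 and 466 TPM in wild type (0.24, adjusted p = 0.618). For both the circSry KO libraries lay on either side of a wild-type library. Uqcr11 shares 970 exonic bases with 3300002P09Rik and Uqcrc2 1342 with Pdzd9, both on the other strand. Pdzd9 had 152 and 136 TPM in circSry KO, against 102 and 144 TPM in wild type. Uqcr11 and Uqcrc2 were not called without wild type replicate 2 (-1.41 and -1.14) or without circSry KO replicate 2 (-0.87 and -0.99), and Uqcrc2 was not called without wild type replicate 3 (-1.22) or with upper-quartile scaling (-0.93).

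No nuclear gene of complex IV was called among 10 tested of 15, where 20% of all genes tested were called higher and 15% lower. The count at an unadjusted p under 0.05 was also 0, and DESeq2 and limma on log2(TPM + 1) called 0. The fold changes ran from -0.54 (Cox5b) to 0.71 (Cox7b), with a median of 0.06. The highest mean TPM over all 4 libraries were those of Cox4i1, the general isoform of subunit 4, with 766 and 437 TPM in circSry KO, against 985 and 1077 TPM in wild type (-0.46, adjusted p = 0.344, edgeR), and Cox6c, with 605 and 356 TPM in circSry KO, against 888 and 820 TPM in wild type (-0.48, adjusted p = 0.285). Both had their circSry KO libraries below the wild-type ones in TPM, and in CPM circSry KO replicate 1 lay among the wild-type libraries for Cox4i1 (329 and 156 CPM in circSry KO, against 308 and 360.3 CPM in wild type).

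The isoforms of complex IV were those of germ cells and of tissues in general. Cox7b2, the testis form of subunit 7B, had 488 and 287 TPM in circSry KO, against 566 and 514 TPM in wild type (-0.10, adjusted p = 0.838, edgeR), and made up 98.6% and 97.1% of the summed TPM of Cox7b and Cox7b2, against 98.4% and 99.4%. The X-linked Cox7b had 7.08 and 8.59 TPM in circSry KO, against 9.03 and 3.09 TPM in wild type. Cox7a2 made up 83.0% and 80.9% of the summed TPM of Cox7a1, Cox7a2 and Cox7a2l in circSry KO, against 80.0% and 80.1% in wild type. Cox7a2l, a homolog that takes part in joining complexes III and IV, had 141 and 96.0 TPM in circSry KO, against 118 and 128 TPM in wild type (0.25, adjusted p = 0.590). Cox6a1 had 519 and 324 TPM in circSry KO, against 686 and 722 TPM in wild type (-0.38, adjusted p = 0.411). The heart and muscle forms Cox6a2 and Cox7a1, the lung form Cox4i2, Cox8b, Cox6c2 and a second entry for Atp5o were the 6 members not tested. Of these, Cox6c2 is annotated as a processed pseudogene. Cox6a2 had 0 and 7 expected counts in circSry KO, against 1 and 1 in wild type, Cox4i2 had 8 and 0 in circSry KO, against 0 and 0 in wild type, Cox7a1 had 0 and 0 in circSry KO, against 0 and 1 in wild type, and the other 3 were at 0 in all 4 libraries.

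The 2 highest log2 fold changes of the nuclear members belonged to the ATP synthase. Of 17 tested genes of 18, 2 were called higher, 1 was called lower and 14 did not pass, with a median of 0.04. Over all genes tested 20% were called higher and 15% lower. Atp5mpl (chromosome 12, 111925397 to 111933510), also named Atp5mj, encodes a small membrane proteolipid. It had 715 and 482 TPM in circSry KO, against 396 and 340.2 TPM in wild type (1.37, standard error 0.33, adjusted p = 0.00538, edgeR). Atp5md (chromosome 19, 47071822 to 47079143), also named Atp5mk, encodes the small membrane subunit DAPIT, which takes part in forming dimers of the enzyme. It had 590.1 and 441 TPM in circSry KO, against 288 and 266 TPM in wild type (1.33, standard error 0.33, adjusted p = 0.00601). Both genes lay higher in each circSry KO library, with circSry KO replicate 1 the highest. Atp5md shares 2827 exonic bases with Taf5 on the other strand, which had 12.6 and 13.1 TPM in circSry KO, against 18.6 and 17.3 TPM in wild type. Neither was called without wild type replicate 2 (1.44 and 1.42), without wild type replicate 3 (1.23 and 1.19), without circSry KO replicate 1 (0.94 and 0.95) or on log2(TPM + 1) with limma (0.68 and 0.88), and Atp5mpl was not called with an offset for the effective length (0.93).

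Subunit c, which forms the rotating ring of the enzyme, is encoded by Atp5g1, Atp5g2 and Atp5g3, whose mature proteins are identical. Atp5g3 (chromosome 2, 73738779 to 73741933) had 75.9 and 62.4 TPM in circSry KO, against 212 and 169 TPM in wild type (-1.13, standard error 0.32, adjusted p = 0.0125, edgeR). It was the member of the ATP synthase called lower. Atp5g1 had 187 and 119 TPM in circSry KO, against 172 and 182 TPM in wild type (0.13, adjusted p = 0.782), and Atp5g2 had 68.9 and 55.3 TPM in circSry KO, against 122.5 and 80.9 TPM in wild type (-0.42, adjusted p = 0.352). Of the summed TPM of the 3 genes, Atp5g3 gave 22.9% and 26.4% in circSry KO, against 41.8% and 39.1% in wild type, and Atp5g1 gave 56.4% and 50.3% in circSry KO, against 33.9% and 42.2% in wild type. The shares of Atp5g3 and of Atp5g1 did not overlap between the groups, and by an exact permutation test (two-sided, 2 against 2) each had p = 0.33, the smallest this design allows. Atp5g3 was not called without wild type replicate 2 (-1.03), without wild type replicate 3 (-1.29), without circSry KO replicate 2 (-0.89) or with upper-quartile scaling (-0.92).

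The catalytic head of the ATP synthase did not pass. Atp5b, its catalytic subunit, had the highest mean TPM of the nuclear members over all 4 libraries, with 902 and 656 TPM in circSry KO, against 1626 and 1713 TPM in wild type. On CPM the difference was smaller (-0.37, adjusted p = 0.405, edgeR) than on log2(TPM + 1), where limma called it lower (-1.12, adjusted p = 0.0176). Its TPM groups did not overlap. Atp5a1, the other large subunit of the head, had 137 and 168 TPM in circSry KO, against 347 and 317 TPM in wild type (-0.95, adjusted p = 0.0297), just short of the fold threshold. Atp5e, in the central stalk, had 1102 and 562 TPM in circSry KO, against 965 and 977 TPM in wild type (0.24, adjusted p = 0.629), and its groups overlapped. Over the 5 genes of the head and the central stalk the median was -0.37.

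**Figure D3:**
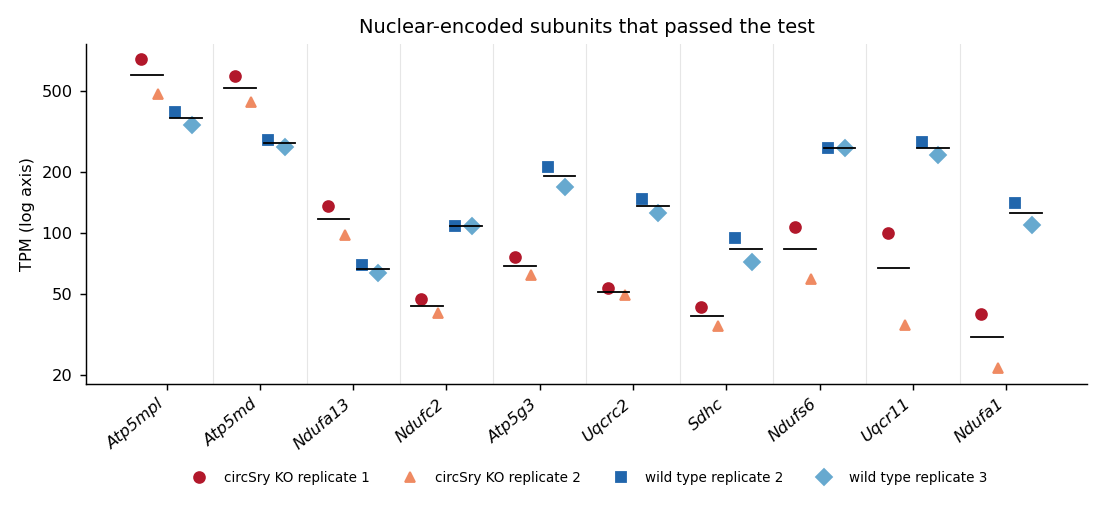
TPM (y axis, log scale) of the 10 nuclear members that were called (x axis, by falling log2 fold change), with circSry KO replicates 1 and 2 left of wild type replicates 2 and 3 and the group means as black lines. The groups do not overlap for any of the 10, and circSry KO replicate 2 is below circSry KO replicate 1 in all of them.

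Over the whole table of nuclear members tested, 43 of 76 had both circSry KO libraries below both wild-type libraries in TPM, where 38.8% of all genes tested did, and 5 had them above, where 29.5% did. In CPM after TMM scaling these counts were 25, against a share of 34.5% over all genes tested, and 7, against 36.6%. The size of the difference in the sum depended on the measure as well. The 82 nuclear members summed to 21010 and 13699 TPM in circSry KO, against 22561 and 22783 TPM in wild type, a ratio of the means of 0.765 (exact permutation test, two-sided, p = 0.33, the smallest possible). In CPM after TMM scaling the tested ones summed to 8075 and 4764 in circSry KO, against 6913 and 7522 in wild type, so that circSry KO replicate 1 was above both wild-type libraries and circSry KO replicate 2 below both (ratio of the means 0.889, p = 1 by the same exact test). The FPKM of all genes summed to 873316 in circSry KO replicate 1, against 644014 to 695275 in the other 3 libraries; TPM are FPKM divided by this sum.

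The 13 mitochondrial messengers summed to 15303 and 23484 TPM in circSry KO, against 47903 and 27627 TPM in wild type, a ratio of the means of 0.514 (exact permutation test, two-sided, p = 0.33). In CPM the sums were 8786 and 12419 in circSry KO, against 20589 and 12893 in wild type. Both measures gave the same order, with the higher circSry KO library close to the lower wild-type library in CPM. In TPM the mitochondrial messengers of complex I had a ratio of 0.382, with 3917 and 6383 TPM in circSry KO, against 17020 and 9915 TPM in wild type, and those of complex IV a ratio of 0.623, with 9558 and 14597 TPM in circSry KO, against 24743 and 14031 TPM in wild type, where the groups overlapped. In CPM these ratios were 0.520 and 0.694. The ratio of complex V was 0.453 in TPM and 1.02 in CPM, and in TPM it includes the few counts of mt-Atp8. With the reads of the nuclear copies added, the sum over the 13 genes was 29435 and 34217 TPM in circSry KO, against 65732 and 40132 TPM in wild type (0.601). The mitochondrial share of all oxidative phosphorylation TPM was 42.1% and 63.2% in circSry KO, against 67.98% and 54.8% in wild type. The groups overlapped, the means were 52.7% ± 14.9 in circSry KO and 61.4% ± 9.32 in wild type (SD, n = 2 each), and the difference of -8.74 percentage points was smaller than the spread within circSry KO (exact permutation test, p = 0.667). Without circSry KO replicate 1 it was 1.77 percentage points, and without circSry KO replicate 2 it was -19.3. The balance of the 2 genomes was therefore not shown to differ between the groups by this measure, and 2 libraries a group allow no firmer statement.

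**Figure D4:**
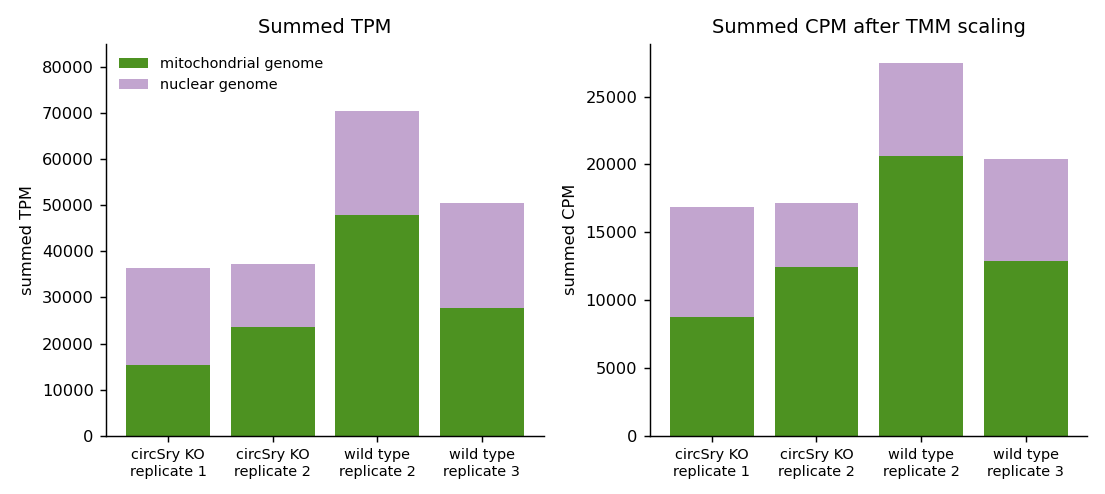
Summed TPM (left) and summed CPM after TMM scaling (right) of the oxidative phosphorylation genes in each library, divided into the mitochondrial (lower bar) and the nuclear genome (upper bar). The mitochondrial part is 15303 and 23484 TPM in circSry KO, against 47903 and 27627 TPM in wild type, and the nuclear part is lowest in circSry KO replicate 2 in both measures.

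The 2 libraries of circSry KO differed from each other for the genes of both genomes, but not in the same way. Of the 76 nuclear members tested 75 had a higher CPM in circSry KO replicate 1 than in replicate 2, with a median ratio of 1.83, against 0.94 for wild type replicate 2 over 3, where 22 of 76 were higher. Over 14692 genes with at least 10 counts in every library the median ratios were 0.98 in circSry KO and 1.00 in wild type. For the 13 mitochondrial messengers the ratio of circSry KO replicate 1 over 2 ran from 0.22 (mt-Nd4l) to 3.05 (mt-Nd3), with 5 of 13 above 1, whereas wild type replicate 2 over 3 ran from 1.52 (mt-Nd4) to 1.93 (mt-Nd4l), with 13 of 13 above 1. The wild-type libraries therefore differed by about 1 common factor for the mitochondrial messengers, and the circSry KO libraries did not. The count ratio of mt-Co1 to mt-Co2 was 1.37 in circSry KO replicate 1, 3.63 in circSry KO replicate 2, and 3.03 and 3.05 in wild type. With the copies added and mt-Atp8 left out, the range was 0.22 to 1.69 in circSry KO and 1.47 to 1.93 in wild type. The summed leukocyte markers were 542 and 388 TPM in circSry KO replicates 1 and 2, those of Sertoli cells 202 and 440 TPM and those of elongating spermatids 53571 and 44350 TPM; the part of such cells in this spread was not tested.

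**Figure D5:**
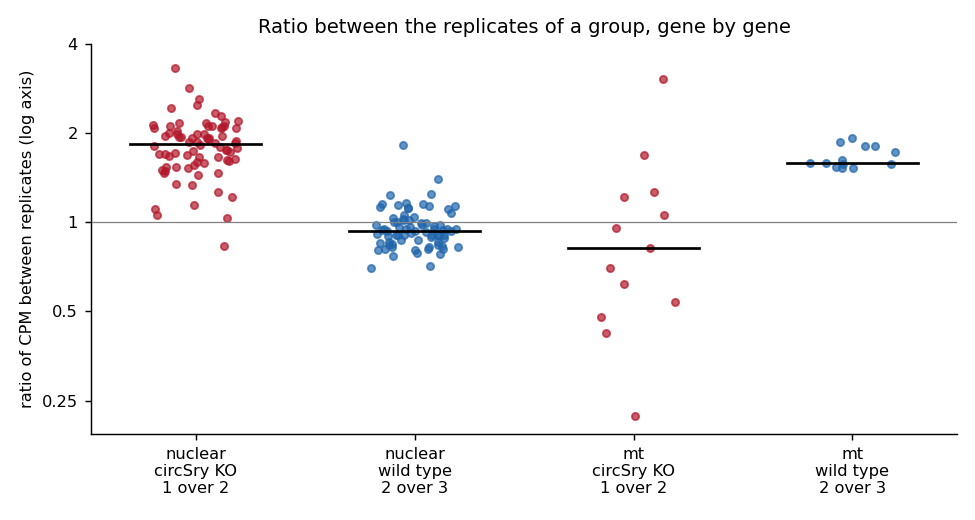
Ratio of CPM between the 2 libraries of a group (y axis, log scale), 1 point per tested gene, for 76 nuclear and 13 mitochondrial members, with the median as a black line. The nuclear members centre on 1.83 in circSry KO and 0.94 in wild type, and the mitochondrial ones spread from 0.22 to 3.05 in circSry KO and from 1.52 to 1.93 in wild type.

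On the X chromosome, which is silenced in pachytene spermatocytes, lie 3 nuclear members. Besides Ndufa1, described above, these are Ndufb11, with 17.5 and 14.4 TPM in circSry KO, against 12.5 and 11.9 TPM in wild type (0.68, adjusted p = 0.211, edgeR), and Cox7b (0.71, adjusted p = 0.284). They did not move together: Ndufa1 lay below its wild-type level in both circSry KO libraries and Ndufb11 above it in both, in TPM and in CPM. Cox7b overlapped in TPM. In CPM it lay above in both, with 3.37 and 4.05 in circSry KO, against 2.92 and 1.60 in wild type.

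Of 46 tested assembly factors, which build the complexes, 2 were called higher, where 20% of all genes tested were, and 10 lower, where 15% were, with a median of -0.50. Timmdc1, which helps to build the membrane arm of complex I, had 3.87 and 4.82 TPM in circSry KO, against 18.1 and 17.97 TPM in wild type (-1.74, adjusted p = 0.00359, edgeR). It was still called in all 15 other settings, and it shares 276 exonic bases with Cd80 on the other strand. Cox10, which makes the heme precursor of complex IV, had 7.15 and 7.63 TPM in circSry KO, against 27.8 and 20.7 TPM in wild type (-1.32, adjusted p = 0.00520), and Coa5, an assembly factor of complex IV, had 13.3 and 22.1 TPM in circSry KO, against 55.1 and 44.0 TPM in wild type (-1.28, adjusted p = 0.00558). The factors called higher were Lyrm7, which assists the insertion of the Rieske protein into complex III, with 60.9 and 66.7 TPM in circSry KO, against 16.8 and 24.7 TPM in wild type (1.29, adjusted p = 0.00605), and Nubpl, which delivers iron-sulfur clusters to complex I, with 13.0 and 17.7 TPM in circSry KO, against 6.14 and 5.38 TPM in wild type (1.43, adjusted p = 0.0109). Without wild type replicate 2, Cox10, Coa5, Lyrm7 and Nubpl were not called (log2 fold changes of -1.32, -1.20, 1.08 and 1.14), and Lyrm7 was not called without wild type replicate 3 either (1.45).

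Of 24 electron carriers, other subunits and carriers of ADP and phosphate 3 were called higher, where 20% of all genes tested were, and 7 lower, where 15% were, with a median of -0.36. Cyc1, the cytochrome c1 of complex III, had 38.0 and 24.8 TPM in circSry KO, against 120 and 80.6 TPM in wild type (-1.56, adjusted p = 0.00216, edgeR). Pdss2, a subunit of the enzyme that makes the side chain of ubiquinone, had 1.95 and 1.54 TPM in circSry KO, against 8.5 and 7.15 TPM in wild type (-1.93, adjusted p = 0.00457), and Coq2, which joins that chain to the ring, had 6.64 and 12.0 TPM in circSry KO, against 37.3 and 21.6 TPM in wild type (-1.36, adjusted p = 0.0108). These 3 genes lay lower in both circSry KO libraries and were not called without wild type replicate 2 (-1.40, -1.64 and -1.14). The somatic ADP/ATP carriers Slc25a5 (18.5 and 20.5 TPM in circSry KO, against 12.8 and 8.99 TPM in wild type) and Slc25a4 (8.89 and 7.23 TPM in circSry KO, against 5.44 and 3.49 TPM in wild type) and the outer membrane channel gene Vdac1 (6.17 and 12.5 TPM in circSry KO, against 4.78 and 3.90 TPM in wild type) were called higher, with log2 fold changes of 1.12, 1.18 and 1.12. None of these 3 was called by DESeq2, by limma on log2(TPM + 1), with an offset for the effective length, without wild type replicate 2 (1.36, 1.40 and 1.18) or without wild type replicate 3 (0.85, 0.92 and 0.98), Slc25a4 was not called without circSry KO replicate 1 (0.83) and Vdac1 not without circSry KO replicate 2 (0.83).

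Of 31 tested genes for the expression and upkeep of mitochondrial DNA 2 were called higher, where 20% of all genes tested were, and 8 lower, where 15% were, with a median of -0.41. Tfam, which packages mitochondrial DNA and starts its transcription, had 456 and 446 TPM in circSry KO, against 54.8 and 55.8 TPM in wild type, at 2.84 on the log2 scale (SE 0.33, adjusted p = 6.09e-05, edgeR). It was called in all 15 other settings, with log2 fold changes of 2.59 to 3.23. The mouse testis is known to make a Tfam transcript of its own, and counts per gene do not separate it from the general one. Fastkd1, of a family that acts on mitochondrial RNA, had 2.52 and 3.32 TPM in circSry KO, against 20.7 and 13.6 TPM in wild type (-2.29, adjusted p = 4.17e-04), and Elac2, which cuts the 3' ends of mitochondrial tRNAs, had 10.3 and 14.8 TPM in circSry KO, against 46.7 and 42.0 TPM in wild type (-1.57, adjusted p = 0.00136). Both were called in all 15 other settings. Polrmt, the mitochondrial RNA polymerase, had 32.7 and 16.2 TPM in circSry KO, against 46.4 and 36.6 TPM in wild type (-1.60, adjusted p = 0.00151), and its fold change depended on the measure, with -0.53 after an offset for the effective length and -0.81 on log2(TPM + 1) with limma, and it was not called in either, nor without wild type replicate 2 (-1.44). Top1mt, the mitochondrial topoisomerase gene, was called higher, with 6.60 and 8.00 TPM in circSry KO, against 3.38 and 2.14 TPM in wild type (1.58, adjusted p = 0.0115), and was not called without wild type replicate 2 (1.85), without wild type replicate 3 (1.29) or on log2(TPM + 1) with limma (1.16).

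Regulators that switch on nuclear genes of the respiratory chain were lower or did not pass. Of 10 tested 3 were called lower, where 15% of all genes tested were, and 7 did not pass, with a median of -0.45. Yy1 had 13.9 and 12.8 TPM in circSry KO, against 31.5 and 33.1 TPM in wild type (-1.10, adjusted p = 0.0115, edgeR). Esrra, a nuclear receptor that acts with PGC-1 coactivators, had 13.8 and 10.9 TPM in circSry KO, against 29.8 and 30.02 TPM in wild type (-1.07, adjusted p = 0.0216), and shares 1479 exonic bases with Trmt112 on the other strand. Gabpb2, a partner of the ETS factor GABPA, had 1.61 and 5.97 TPM in circSry KO, against 12.9 and 8.15 TPM in wild type (-1.72, adjusted p = 0.00255). Nrf1 itself had 11.7 and 13.8 TPM in circSry KO, against 25.8 and 25.4 TPM in wild type, and did not pass (-0.76, adjusted p = 0.0713). Yy1 and Esrra were not called without wild type replicate 2 (-1.06 and -1.18), without wild type replicate 3 (-1.21 and -1.01), without circSry KO replicate 2 (-0.94 and -0.79) or with upper-quartile scaling (-0.89 and -0.85), and Gabpb2 was not called on log2(TPM + 1) with limma.

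These regulators are known to bind promoters of nuclear respiratory genes, and the RefSeq promoter windows (GRCm38.p6, 250 bases before to 50 after the start site) were searched on both strands for 3 words. Windows were found for 67 of the 82 nuclear members. The NRF1 word GCGCATGCG, whose reverse complement overlaps it in its palindromic form, stood in the windows of 8 of 67 (11.9%), against 527 of 27025 genes with a window (1.95%). The YY1 word AAGATGGCG stood in 7 of 67 (10.4%), against 443 of 27025 (1.64%), and the GABPA word CCGGAAGTG in 2 of 67 (2.99%), against 608 of 27025 (2.25%). The following windows are from members described above, 5′ to 3′ on the strand of the gene, with the word in capitals.
Uqcr11, NRF1 word on the opposite strand (chr10:80406807-80406836, minus strand): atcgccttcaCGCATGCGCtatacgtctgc
Atp5g2, NRF1 word (chr15:102671070-102671099, minus strand): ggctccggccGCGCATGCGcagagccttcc
Cox6a1, NRF1 word (chr5:115349101-115349130, minus strand): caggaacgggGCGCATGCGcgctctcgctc
Ndufs6, YY1 word (chr13:73328433-73328462, minus strand): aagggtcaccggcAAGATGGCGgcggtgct
Ndufc1, YY1 word (chr3:51408914-51408943, minus strand): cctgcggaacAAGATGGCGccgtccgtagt
In the called members Uqcr11 (-1.48) and Ndufs6 (-1.32) the words lie 5 bases before and 33 after the start site, and in Atp5g2 (-0.42), Cox6a1 (-0.38) and Ndufc1 (0.05), which were not called, similar words are present. Binding was not measured.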

How the data were processed

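RNA-seq of sorted primary spermatocytes was analysed for 4 libraries, grouped by their labels. The authors aligned the reads with STAR 2.7.0f and quantified genes with RSEM 1.3.2. As builds the submitters' notes name GRCm39 and mm9, while the annotation was not given in the sources used here. Expected counts, as deposited, are RSEM's estimates of reads per gene without normalization, so some are fractions of a read. TPM and FPKM, as deposited by the authors, come from the same run and are scaled for transcript length and library. The labels state 2 µg and, in another field, 1 µg of RNA. The authors' tables of their own comparison (log fold change, likelihood ratio, p-value, FDR) were not used, nor was a second sheet with the same TPM.

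After rounding, the expected counts were analysed by edgeR 4.0.16 under R 4.3.3 (filterByExpr, TMM, quasi-likelihood test, Benjamini-Hochberg over 17766 genes). The script was tested on simulated data. The standard error of a log2 fold change is its size divided by the root of F. CPM are counts scaled to the TMM-adjusted library size. DESeq2 1.42.0 and limma 3.58.1 on log2(TPM + 1) and log2(TPM + 0.1) were alternatives, with other scalings, other filters and each library left out. Sums and shares were compared by exact permutation, which cannot go below p = 0.33 with 2 against 2. P-values measure the spread between single libraries of 2 mice a group. Replicates of each group differed beyond sampling noise (chi-square per member gene of 231 in circSry KO and 77.2 in wild type).

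Of the subunit genes, 4 symbols are not reported here. All 95 members matched GENCODE M39 on GRCm39 by Ensembl identifier, 68 share exonic bases with another gene, and 11 had expected counts that were not whole within 0.001, the mark of reads shared with another gene. Genes were named by rule: every mitochondrial member, per complex up to 4 called members in each direction by adjusted p and the 2 of highest mean TPM, isoform groups, X-linked members, and up to 3 called genes of each pathway list in each direction. Further genes (Ndufb9, Ndufb1, Sdhd, Uqcrc1, Atp5a1, Cox5b, Nrf1, overlapping genes) were named after their values were seen. The members and lists were chosen with earlier results of these data known.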

Additional observations from a re-analysis of the deposited data

How the results depend on the processing

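No paired analysis was possible because the groups share only 1 replicate number. For nuclear members called higher (3 by edgeR with TMM scaling) the count was 0 on log2(TPM + 0.1) and 0 on log2(TPM + 1) with limma. Over all 17766 genes tested the higher calls were 3551 by edgeR with TMM scaling, 2117 on log2(TPM + 0.1) and 2219 on log2(TPM + 1). For nuclear members called lower (7) it was 15 on both limma scales, 3 with upper-quartile scaling, and 0 to 26 with each library left out. For mitochondrial messengers called lower (2) it was 5 with DESeq2 size factors, 4 by the edgeR likelihood ratio test, 7 on both limma scales, 5 with no filter, 7 with an offset for effective length (added after seeing the data), 1 with upper-quartile scaling, and 0 to 6 with each library left out; none was called higher under any setting. The nuclear median log2 fold change was -0.71 to 0.10 with each library left out. The mitochondrial median lay between -1.30 and -0.60 in all settings run. The difference in the mitochondrial share (-8.74 percentage points) lay between -19.3 and 1.77 over its 8 alternatives. No named gene that was called changed its sign. With 1 library left out, the lone library of its group is assumed to vary like the other group. The cause of these changes was not tested. At 8045148 to 8839461 counts a library, Cox4i2, Cox6a2 and Cox7a1 had fewer than 30 counts in every library. How far depth limits them was not tested. mt-Atp8 also had fewer than 30 counts in every library, at 133 to 1264 TPM. It shares 43 exonic bases with mt-Atp6, and how far depth or the division of reads limits it was not tested.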

Other observations

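The mitochondrial ribosomal RNAs, which poly(A) selection keeps only in part, did not pass the test. mt-Rnr1 had 253 and 209 TPM in circSry KO, against 442 and 202 TPM in wild type (log2 fold change -0.16, standard error 0.37, adjusted p = 0.755, edgeR), and mt-Rnr2 had 169 and 136 TPM in circSry KO, against 310.1 and 179 TPM in wild type (-0.39, standard error 0.35, adjusted p = 0.394). In TPM the groups overlapped for mt-Rnr1 and did not overlap for mt-Rnr2. In CPM they overlapped for both, with 197 and 129 CPM of mt-Rnr2 in circSry KO, against 262 and 165 CPM in wild type. The difference between these genes and the messengers was not tested. All 22 mitochondrial tRNA genes were listed at 0 in every library.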
